A study of Homo sapiens with 54 samples.

Results

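The genes examined here are 32 that run mitosis and cytokinesis, taken from a list of names out of 19974 protein-coding genes of chromosomes 1 to 22 and X. The list was chosen with earlier results of these data known. For each gene, peak-covered length was summed over a window of the gene body with 10 kb added at both ends, and the presence of a peak within 1 kb of either gene end was scored. The study measured chromatin accessibility by ATAC-seq, in which a transposase cuts open DNA and the pileup of cuts is called as peaks. The breast cancer line MDA-MB-231 and the prostate cancer line PC3 were each sampled in 3 groups: untreated controls, cells that had survived cisplatin 1 day after its removal (day 1), and survivors 10 days after removal (day 10). Every group had 3 biological replicates, each divided into 3 experimental replicates before transposition, which gave 54 samples and 18 deposited peak lists, 1 for each biological replicate. Both treated groups of a line were compared with the same 3 control lists. The dose and length of cisplatin exposure are not given in the sources used here. The labels do not say how the biological replicates were separated, so the p-values below measure the spread between lists. The series title describes the resistant cells as polyploid; ploidy and copy number were not measured in these files.

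Entry into mitosis is driven by CDK1 bound to cyclin B, together with Aurora and Polo-like kinases. The spindle assembly checkpoint then holds CDC20, the activator of the anaphase-promoting complex, until every kinetochore is attached to the spindle. After anaphase the chromosomal passenger complex and the central spindle position the contractile ring that divides the cell. Cisplatin crosslinks DNA, and cells that skip or fail these last steps become polyploid. Many of these genes are transcribed in G2 and M phase through promoters that carry CCAAT boxes, bound by NF-Y, and a cell cycle genes homology region (CHR), bound by the DREAM and MMB complexes.

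The 32 genes were sorted by role. CCNA2, CCNB1, CCNB2 and CDK1 form the cyclin and CDK1 group, and AURKA, PLK1 and PLK4 the mitotic kinases. BUB1, BUB1B, MAD2L1 and TTK belong to the spindle assembly checkpoint, and CDC20, ESPL1 (separase) and PTTG1 (securin) trigger anaphase. AURKB, BIRC5, CDCA8 and INCENP make up the chromosomal passenger complex, and CENPA, CENPE and CENPF sit at the centromere and kinetochore. HAUS1, KIF11, NUSAP1 and TPX2 act on spindle microtubules. ANLN, CIT, ECT2, KIF20A, KIF23, PRC1 and RACGAP1 act at the central spindle and in cytokinesis. The window of 13 genes held no other protein-coding gene body, whereas that of 19 did, so a peak there can belong to a neighbour.

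Of the 32 genes, 27 had an entry in the RefSeq promoter table (GRCh38.p14, from 250 bases before to 50 after the gene start). The first 4 sequences below are shown for their motifs, and those of PLK4 and HAUS1 because these start regions lost the most peak cover in PC3. CCNB2 (chr15:59104896-59105145), CDC20 (chr1:43358731-43358980), CDK1 (chr10:60778081-60778330) and PLK4 (chr4:127880643-127880892) lie on the plus strand, and PRC1 (chr15:90994536-90994785) on the minus strand. The HAUS1 sequence covers the bases between the end of its neighbour ATP5F1A and the HAUS1 start (chr18:46104228-46104384, plus strand). Capitals mark each CCAAT box (CCAAT on either strand) and each CHR core (TTTGAA or TTCGAA on either strand), and every sequence runs 5′ to 3′ up to the gene start.
CCNB2: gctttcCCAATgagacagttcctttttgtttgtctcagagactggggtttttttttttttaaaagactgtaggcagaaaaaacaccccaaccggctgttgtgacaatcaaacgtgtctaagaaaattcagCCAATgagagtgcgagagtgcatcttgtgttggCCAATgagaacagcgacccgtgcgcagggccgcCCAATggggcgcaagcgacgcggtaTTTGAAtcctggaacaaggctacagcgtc
CDC20: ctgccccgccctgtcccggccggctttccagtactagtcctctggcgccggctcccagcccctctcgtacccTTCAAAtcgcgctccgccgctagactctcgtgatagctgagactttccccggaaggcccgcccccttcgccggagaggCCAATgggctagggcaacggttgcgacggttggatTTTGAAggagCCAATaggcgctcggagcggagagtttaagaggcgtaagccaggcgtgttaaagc
PRC1: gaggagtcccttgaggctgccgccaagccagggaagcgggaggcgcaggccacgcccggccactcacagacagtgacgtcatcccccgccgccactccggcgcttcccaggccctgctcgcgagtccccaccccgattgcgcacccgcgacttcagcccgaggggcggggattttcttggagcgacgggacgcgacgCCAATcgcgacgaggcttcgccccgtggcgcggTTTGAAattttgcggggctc
CDK1: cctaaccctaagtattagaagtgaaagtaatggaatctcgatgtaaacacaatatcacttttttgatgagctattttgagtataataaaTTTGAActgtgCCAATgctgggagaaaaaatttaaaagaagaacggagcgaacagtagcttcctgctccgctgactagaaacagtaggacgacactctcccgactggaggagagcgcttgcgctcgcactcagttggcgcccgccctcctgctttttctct
PLK4: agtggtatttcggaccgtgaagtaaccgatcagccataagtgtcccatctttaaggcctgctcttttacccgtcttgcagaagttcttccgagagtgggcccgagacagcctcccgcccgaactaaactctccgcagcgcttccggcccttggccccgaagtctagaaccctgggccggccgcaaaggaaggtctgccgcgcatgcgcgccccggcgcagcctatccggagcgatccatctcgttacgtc
HAUS1: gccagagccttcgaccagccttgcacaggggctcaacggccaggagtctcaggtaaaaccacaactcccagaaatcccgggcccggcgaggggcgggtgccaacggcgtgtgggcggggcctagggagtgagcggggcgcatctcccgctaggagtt
A CCAAT box was found in 22 of the 27 gene windows of 300 bases (81.5%), against 36.3% of the 15812 protein-coding genes in the table. A CHR core was found in 20 (74.1%, against 13.5%), and both in 17 (63.0%, against 5.55%). CCNB2 carried 4 CCAAT boxes and 1 CHR core in the sequence shown, the core 29 bases before the gene start. In PRC1 the CCAAT box began 53 bases and the CHR core 20 bases before the start. No match was present in the HAUS1 sequence, and none upstream of PLK4. A letter match is a description of sequence and was not tested as a binding site.

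Peaks sat at the gene ends of nearly all members in every condition. In 30 of 32 genes (93.8%) a peak lay within 1 kb of an end in all 18 lists, against 57.1% of all 19974 genes. HAUS1 had an end peak in 15 lists and lacked one in the 3 PC3 day 10 lists. RACGAP1 had none in any list. Inside its annotated extent (chr12:49989162-50033440) a region at chr12:50024774-50026011 had a peak in all 9 MDA-MB-231 lists, as did a region in each flank. RACGAP1 had no promoter entry, so its start was not placed. Within 200 bp of an end, 29 genes kept a peak in all lists, the further loss being PLK4 with 16 of 18 lists.

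The lists held 82392 to 165535 peaks that covered 54.4 to 82.3 Mb, with a median peak width of 320 to 592 bp. Control lists of MDA-MB-231 held 82392 to 98777 peaks and treated lists of that line 100564 to 133526. In PC3 the controls held 106577 to 114731 peaks and the treated lists 115050 to 165535. Covered lengths are therefore given in scaled kb, meaning that each list was multiplied so that its total covered length equals the mean of all lists. Read depth is unknown, since the lists hold no read counts. HOXB13, a marker of prostate cells, had 11.5 to 13.8 scaled kb in PC3 controls and 0.838 to 1.53 in MDA-MB-231 controls. FOXA1, of the same marker list, had 12.5 to 14.2 and 6.0 to 7.0. GATA2, the third of that list, tended the other way, with 3.0 to 5.8 in PC3 controls and 5.6 to 7.0 in MDA-MB-231 controls. Cover at line markers moved with treatment as well. The summed window cover of 3 PC3 markers was 28.6 to 32.1 scaled kb in PC3 controls, 25.4 to 27.6 on day 1 and 20.8 to 24.5 on day 10. That of 4 MDA-MB-231 markers was 43.0 to 45.6 in MDA-MB-231 controls, 34.2 to 35.1 on day 1 and 36.1 to 36.6 on day 10. Their part in the results below was not tested. CDKN2A had no peak in any MDA-MB-231 list and 2.41 to 3.23 scaled kb in PC3 controls.

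Most of the 32 genes had less peak cover in surviving cells than in controls, by a small margin, except in PC3 on day 1 without scaling. In MDA-MB-231 on day 1, 8 genes (25.0%) were called lower and 1 higher at an adjusted p under 0.05 (limma), beside 15.5% lower and 10.9% higher among all 16816 genes tested. On day 10 of that line 9 (28.1%) were lower and 0 higher, beside 16.7% and 11.0% of all genes, and 0 were higher at an unadjusted p under 0.05 too. In PC3 on day 1, 1 gene was lower and 1 higher, beside 7.24% and 6.02%. On day 10 of PC3, 16 (50.0%) were lower and 1 higher, beside 33.1% and 11.8%. The median log2 change of the 32 genes was -0.24 and -0.19 in MDA-MB-231 on days 1 and 10, and -0.14 and -0.28 in PC3. Over all genes these medians were -0.09, -0.11, -0.07 and -0.16, so gene windows in general shifted the same way under this scaling. Without scaling the all-gene medians were 0.04, -0.11, 0.16 and 0.05, and those of the 32 genes -0.11, -0.20, 0.09 and -0.08. Fewer cells with an open site, less opening in each cell and fewer copies of the locus cannot be told apart in bulk lists of this kind.

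**Figure D1:**
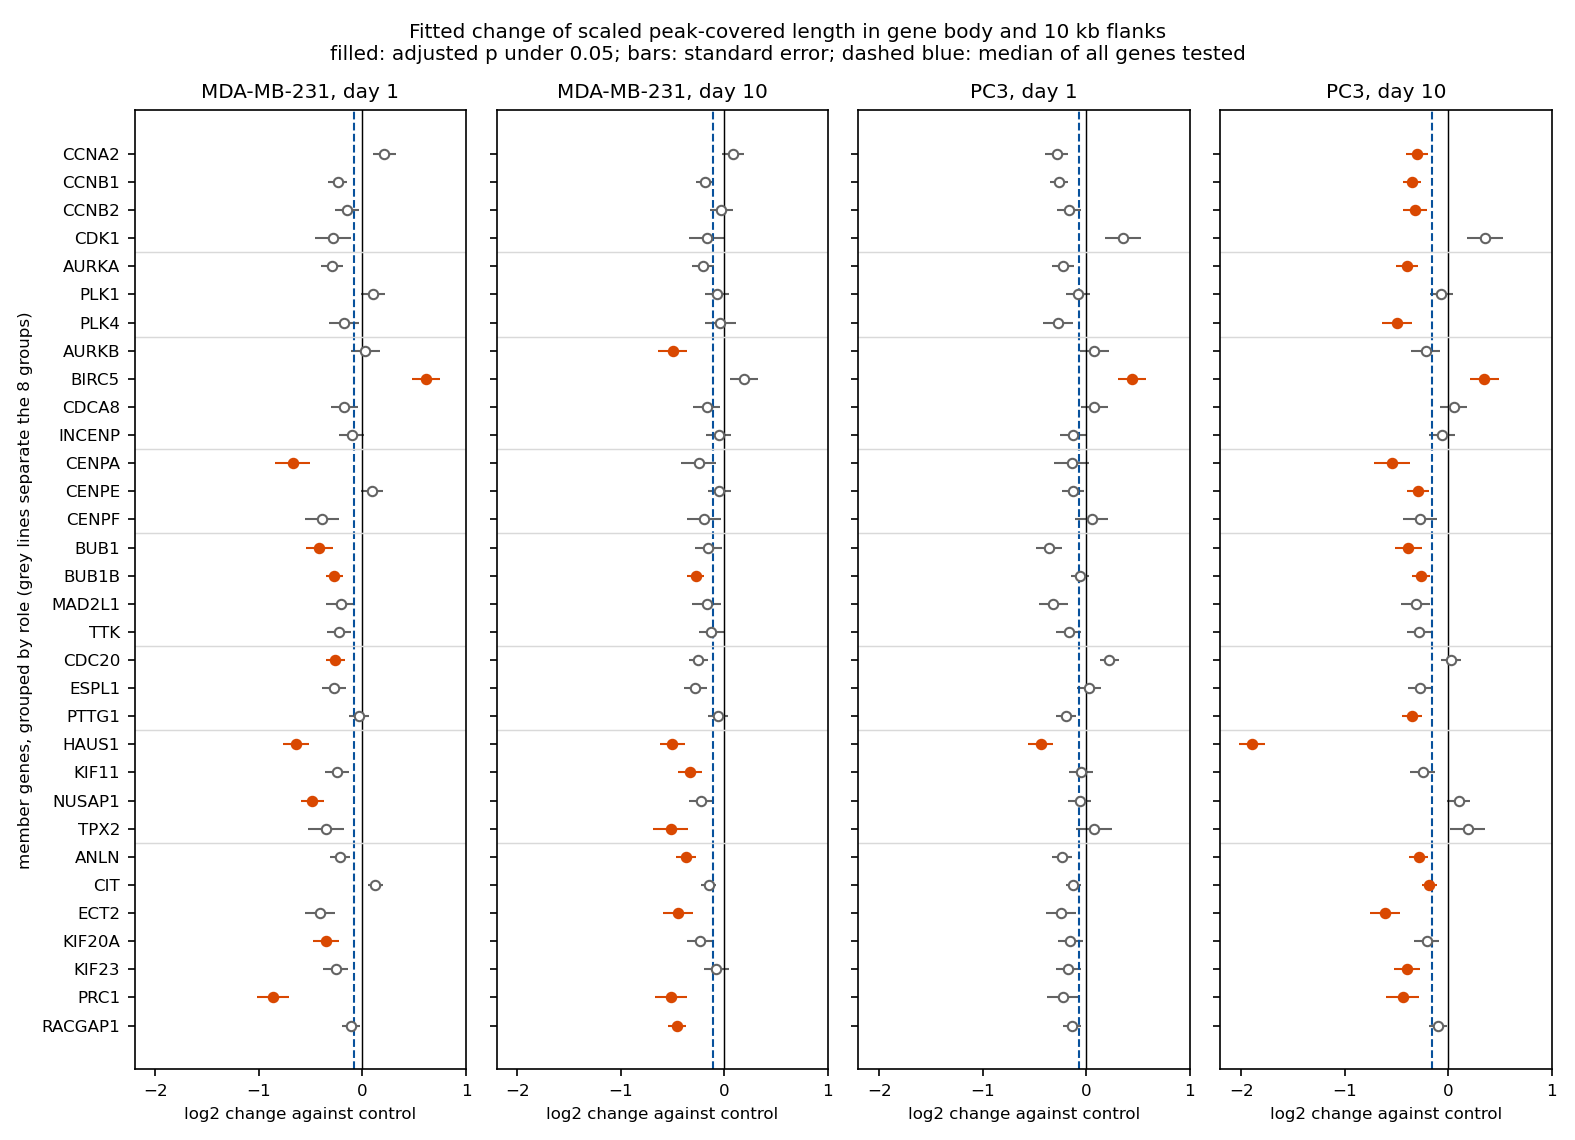
Fitted log2 change in covered length against control (points, with standard error bars) for the 32 genes, grouped by role, with 1 panel for each line and day (3 lists per group). Filled points passed an adjusted p under 0.05, and the dashed line marks the median of all genes. HAUS1 in PC3 on day 10 lies furthest from 0 at -1.89, and its value depends on the added 500 bp because the 3 treated lists were at 0. The values rest on scaling to total covered length, and without scaling the median of the genes in PC3 on day 1 turns from -0.14 to 0.09.

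These counts depended on how lists were scaled. Without scaling, MDA-MB-231 had 1 gene higher and 3 lower on day 1, and 0 and 5 on day 10. PC3 had 2 higher and 0 lower on day 1, and 1 and 1 on day 10. With median-of-ratios scaling, in which the median gene is held constant, the counts of higher and lower genes were 2 and 4, 0 and 2, 2 and 0, and 2 and 3 in the same order. Among all genes, 1.89%, 7.09%, 0.190% and 7.06% were lower without scaling and 5.66%, 5.72%, 2.40% and 15.0% with median-of-ratios scaling. In PC3 on day 10 the share of members lower thus stood below that of all genes under both. Higher were 11.3%, 8.67%, 14.5% and 16.8% of all genes without scaling, and 13.3%, 12.9%, 8.76% and 20.4% with median-of-ratios scaling. Median-of-ratios scaling brought the all-gene medians to about 0, and put the medians of the 32 genes at -0.15 and -0.10 in MDA-MB-231, with PC3 at -0.06 and -0.13. Single lists also moved the counts. On day 1 of MDA-MB-231, 4 genes were lower without treated list 3 and 5 without control list 2. On day 10, 5 were lower without control list 3, treated list 1 or treated list 2. In PC3 on day 10 the count was 7 without control list 3, 8 without treated list 1 and 10 without treated list 3.

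**Figure D2:**
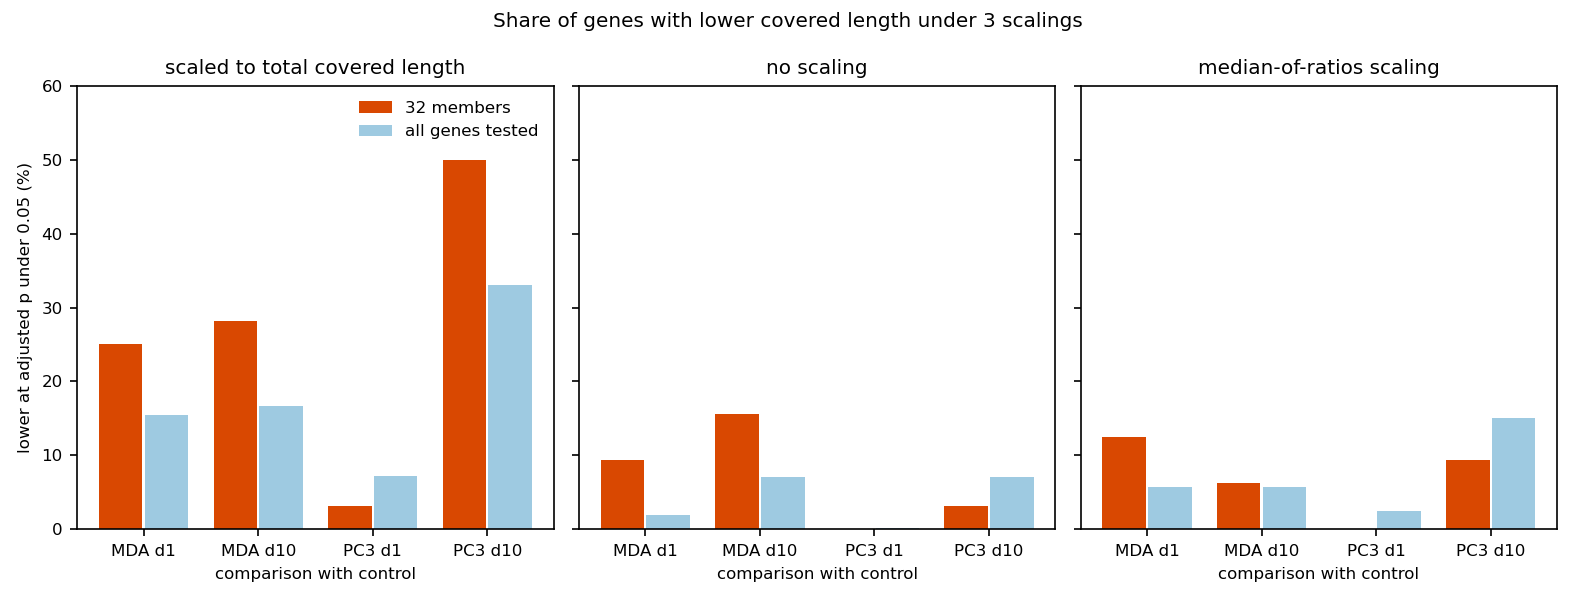
Percent of genes called lower than control at an adjusted p under 0.05, for the 32 genes and for all genes tested, in the 4 comparisons of treated with control lists and under 3 scalings. With total covered length the 32 genes reach 50.0% in PC3 on day 10, beside 33.1% of all genes. Without scaling 1 of the 32 remains, beside 7.06% of all genes.

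Over the whole window, the cyclin and CDK1 group was called against control in PC3 on day 10, where CCNB1, CCNB2 and CCNA2 were lower. At the ends, CCNB1 and CDK1 were also lower in MDA-MB-231 on day 1, beside 20.3% of all genes. The CDK1 ends had 1295, 1292 and 1205 scaled bp in those controls and 996, 996 and 386 on day 1, the last list lying far below the others. In PC3, CCNB1 and CCNA2 were lower at the ends on both days and CCNB2 on day 10, beside 25.0% and 58.1%. No member was lower at its ends in PC3 on day 1 under either other scaling. These end calls were not followed one by one under the alternatives. CCNB1, the cyclin that activates CDK1 at mitotic entry, had 0.899, 0.935 and 1.03 scaled kb in the PC3 controls. The day 1 lists had 0.647, 0.754 and 0.736 and the day 10 lists 0.660, 0.669 and 0.593, all below every control. The fitted log2 change on day 10 was -0.35 (SE 0.09, adjusted p = 0.0044), and it held whichever list was left out but not without scaling. Relative to genes within 5 Mb the change turned to 0.17. In MDA-MB-231 the controls had 1.07, 1.15 and 1.21 scaled kb, the day 1 lists 0.923, 0.923 and 0.825, and the day 10 lists 0.922, 0.985 and 0.922. Those groups did not overlap either, yet the changes of -0.24 and -0.19 did not pass the test (adjusted p = 0.052 and 0.12). How many of all genes had groups without overlap was not counted, here or for the genes below. CCNB2 (-0.32, adjusted p = 0.03) and CCNA2 (-0.30, adjusted p = 0.031) overlapped between PC3 groups. Neither was called without scaling, with median-of-ratios scaling, or without control list 2 or 3 or treated list 1, and relative to genes within 5 Mb they turned to 0.026 and 0.12.

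CDK1, the master mitotic kinase, kept its start peak and gained cover away from it in PC3. Its window had 1.52, 2.29 and 1.65 scaled kb in PC3 controls, 1.80, 3.50 and 2.26 on day 1, and 1.86, 2.75 and 2.82 on day 10. The groups overlapped, and the whole-window change of 0.36 on day 10 did not pass the test (SE 0.18, adjusted p = 0.11). Outside the 1 kb end windows, CDK1 had 0.244, 1.04 and 0.258 scaled kb in controls, 0.882, 2.45 and 1.21 on day 1, and 0.822, 1.69 and 1.78 on day 10. That part rose by a log2 change of 1.00 on day 1 (SE 0.28, adjusted p = 0.033) and 0.98 on day 10 (SE 0.28, adjusted p = 0.015). Among all genes, 7.75% and 15.2% were higher by this measure. Control list 2 lay within the treated range, and the calls were lost on leaving out control list 1, control list 3 or treated list 2 or 3, with changes between 0.69 and 1.35 on day 1 and 0.80 and 1.32 on day 10. A region 20.0 kb downstream of the start (chr10:60797273-60799356) had a peak in 0 of 3 PC3 control lists and in all 6 treated ones, while all 9 MDA-MB-231 lists had a peak there. In MDA-MB-231, CDK1 had 1.95, 2.17 and 2.10 scaled kb in controls, 1.65, 1.85 and 1.36 on day 1 and 1.76, 1.90 and 1.70 on day 10. Those treated values lay below the controls in every list, with changes of -0.29 and -0.17 that did not pass (adjusted p = 0.24 and 0.49).

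Of the mitotic kinases, AURKA and PLK4 were lower over the window in PC3 on day 10. PLK1 was not called over its window in any treated group, and was lower at its ends in PC3 on day 10. AURKA, which builds spindle poles, had 3.28, 2.36 and 3.12 scaled kb in PC3 controls, 2.31, 2.39 and 2.51 on day 1 and 2.13, 2.06 and 2.05 on day 10. All day 10 values lay below the controls (log2 change -0.40, SE 0.11, adjusted p = 0.0062), but the call ended under both other scalings, and with 50 kb on each side the change turned to 0.28 (adjusted p = 0.023). PLK4 is the kinase that licenses centriole duplication. Its window had 1.05, 1.51 and 1.11 scaled kb in PC3 controls, 0.829, 0.824 and 1.11 on day 1 and 0.802, 0.962 and 0.434 on day 10 (log2 change on day 10 -0.50, SE 0.15, adjusted p = 0.012). Around its ends, PLK4 had 1045, 1126 and 1107 scaled bp in controls and 426, 685 and 291 on day 10, without overlap. This end measure fell by 1.13 on the log2 scale (SE 0.18, adjusted p = 0.00028), beside 58.1% of all 14498 genes called lower at their ends. It stayed called under each alternative applied to the end measure and without any single list. The window call was lost without control list 2 or treated list 3 and under both other scalings, and turned to 0.020 relative to genes within 5 Mb. The ends were not set against genes within 5 Mb. Over their windows, the 15 genes around PLK4 had a median change of -0.66 in PC3 on day 10 and -0.08 in MDA-MB-231. Of the 250 PLK4 promoter bases printed above, peaks covered 203, 250 and 185 in PC3 controls and 0, 135 and 0 on day 10. In MDA-MB-231 those bases were covered for 221 to 250 bases in all 9 lists.

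Within the spindle assembly checkpoint, BUB1 and BUB1B were lower in MDA-MB-231 on day 1 and in PC3 on day 10, and BUB1B also in MDA-MB-231 on day 10, while MAD2L1 and TTK were called in no treated group over the window. At the ends all 4 were lower in PC3 on day 10, beside 58.1% of all genes. BUB1B, which makes the BubR1 checkpoint protein, had 2.15, 2.11 and 2.02 scaled kb in MDA-MB-231 controls, 1.67, 1.55 and 1.72 on day 1 and 1.64, 1.58 and 1.71 on day 10. No treated value reached a control, with log2 changes of -0.27 (SE 0.08, adjusted p = 0.024) and -0.28 (SE 0.08, adjusted p = 0.021). The 104 genes within 5 Mb of BUB1B had medians of -0.16 and -0.25 on these days, and 32 and 44 of them were lower than BUB1B. BUB1 had 2.22, 2.25 and 1.86 scaled kb in the same controls and 1.72, 1.50 and 1.18 on day 1 (log2 change -0.42, SE 0.13, adjusted p = 0.024). Around BUB1 the 50 genes within 5 Mb had a median of -0.10. In PC3 the day 10 changes were -0.26 for BUB1B (adjusted p = 0.018) and -0.38 for BUB1 (adjusted p = 0.021), again without overlap. There the genes within 5 Mb had medians of -0.15 and -0.22. All of these BUB1B and BUB1 calls ended under both other scalings and on leaving out at least 1 list. Control list 1 or 2 was enough for both genes on day 1 of MDA-MB-231, and control list 3 or treated list 1 in PC3. With 50 kb on each side the day 1 change of BUB1B in MDA-MB-231 turned to 0.098.

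CDC20, ESPL1 and PTTG1 trigger anaphase, and CDC20 was the gene whose day 1 change differed between lines. CDC20 had 10.4, 8.46 and 9.83 scaled kb in MDA-MB-231 controls and 8.05, 7.54 and 7.98 on day 1. The day 1 values lay below all controls (log2 change -0.26, SE 0.09, adjusted p = 0.044), a call lost without any 1 of 5 lists, treated lists 1, 2 and 3 and control lists 1 and 3, and under both other scalings. It turned to 0.077 with the 50000 peaks of largest area. In PC3 the window had 8.26, 6.51 and 8.38 scaled kb in controls and 9.14, 9.37 and 8.64 on day 1, all above the controls. Within 1 kb of its ends, PC3 controls had 1954, 1354 and 2118 scaled bp, day 1 lists 2914, 2963 and 2979, and day 10 lists 1622, 1563 and 1981. This end cover rose by 0.70 on day 1 (SE 0.14, adjusted p = 0.0083, beside 3.33% of all genes higher) and fell by 0.75 from day 1 to day 10 (SE 0.14, adjusted p = 0.0045). In MDA-MB-231 the ends had 4106, 2911 and 3598 scaled bp in controls and 2928, 3000 and 2671 on day 1. The day 1 change at the ends was larger in PC3 than in MDA-MB-231 by 0.98 on the log2 scale (SE 0.20, adjusted p = 0.012), beside 1.20% of all genes higher in that test. The same difference over the whole window was 0.49 (SE 0.13, adjusted p = 0.036, beside 1.86% of all genes), and it was lost on leaving out 9 of the 12 lists in turn. The end values held without any single list and under both scalings, but not with lists numbered 1 left out of all groups or with the 50000 peaks of largest area. A region over the CDC20 3′ end and the neighbouring gene ELOVL1 (chr1:43362629-43364454) had a peak in 0 of 3 PC3 controls, 3 of 3 day 1 lists and 1 of 3 day 10 lists. All 250 promoter bases shown above were covered in all 18 lists. PTTG1, the securin that restrains separase, had 2.47, 2.33 and 2.34 scaled kb in PC3 controls and 1.51, 1.82 and 1.97 on day 10, below every control (log2 change -0.35, SE 0.10, adjusted p = 0.0072). That call ended under both other scalings.

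**Figure D3:**
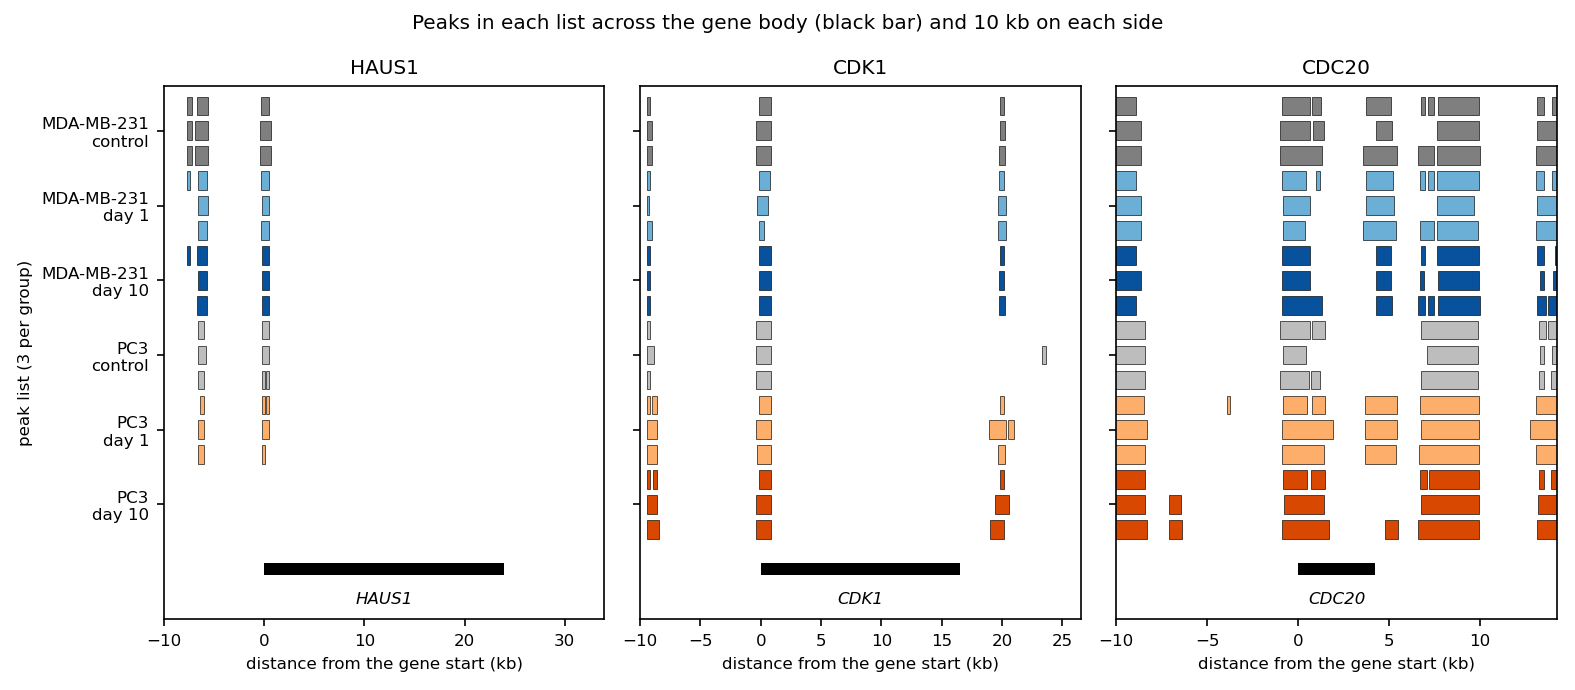
Peaks of each of the 18 lists (horizontal bars, colored by group) around HAUS1, CDK1 and CDC20, by distance from the gene start in kb. Bars at the start of HAUS1 are missing in the 3 PC3 day 10 lists, those 20.0 kb past the CDK1 start are missing in the 3 PC3 controls, and those at the CDC20 3′ end appear in all 3 PC3 day 1 lists.

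In the chromosomal passenger complex, BIRC5 was the member called higher, and AURKB was lower in MDA-MB-231 on day 10. BIRC5 encodes survivin, which targets the complex to centromeres and inhibits apoptosis. It had 1.81, 1.71 and 2.18 scaled kb in MDA-MB-231 controls, 3.06, 2.91 and 3.60 on day 1 and 2.41, 2.22 and 2.06 on day 10. All day 1 values exceeded all controls (log2 change 0.62, SE 0.14, adjusted p = 0.0037), and that call held under both other scalings and without any single list. It turned to -0.24 with the 50000 peaks of largest area, to -0.18 over the gene body alone and to -0.033 with 50 kb on each side. In PC3 it had 3.03, 2.01 and 2.58 scaled kb in controls, 3.24, 4.42 and 3.22 on day 1 and 2.99, 3.24 and 3.84 on day 10. The day 1 values did not overlap the controls and the day 10 values did, with log2 changes of 0.44 (SE 0.14, adjusted p = 0.042) and 0.35 (SE 0.14, adjusted p = 0.045). With the replicate block these became adjusted p = 0.053 and 0.064. The PC3 day 1 call was lost without any list except control list 1, and the day 10 call without control list 2 or 3 or treated list 2 or 3.

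Cover of BIRC5 outside its ends was called higher in both MDA-MB-231 groups and in PC3 on day 10. In PC3 on day 1 neither part passed the test, with changes of 0.36 at the ends (adjusted p = 0.19) and 0.48 outside them (adjusted p = 0.053). Outside the 1 kb end windows, MDA-MB-231 had 0.525, 0.362 and 0.768 scaled kb in controls, 1.68, 1.45 and 1.73 on day 1 and 1.39, 1.22 and 1.06 on day 10. Every treated value lay above every control, with log2 changes of 1.03 (SE 0.15, adjusted p = 0.00014) and 0.73 (SE 0.15, adjusted p = 0.0019), beside 13.3% and 13.4% of all genes higher. PC3 had 1.16, 0.862 and 0.785 scaled kb in controls and 1.55, 1.90 and 1.98 on day 10, also without overlap (log2 change 0.69, SE 0.15, adjusted p = 0.0026). These 3 calls held without any list and under both other scalings, and ended when each list was cut to its 50000 peaks of largest area. Counted over the gene body alone, the PC3 change on day 10 was -0.05. A site past the high-coordinate end of the gene (chr17:78226046-78226554) had a peak in 0 of 3 MDA-MB-231 controls, 3 of 3 day 1 lists and 0 of 3 day 10 lists, and in 1, 3 and 3 lists of the PC3 groups. This site lies within 1 kb of the gene end, so it counts at the ends and not in the cover outside them. Past the end window, a region (chr17:78226737-78227865) had a peak in 1, 3 and 3 lists of the MDA-MB-231 groups. Another site outside the ends (chr17:78230631-78231218) had a peak in 0, 1 and 3 PC3 lists and in no MDA-MB-231 list. The window also holds AFMID and TMEM235, so these sites cannot be assigned to BIRC5 from the lists.

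AURKB, the kinase of the complex, had 5.54, 4.28 and 7.37 scaled kb in MDA-MB-231 controls, 6.06, 5.30 and 5.82 on day 1 and 3.84, 4.15 and 3.49 on day 10. Day 10 values lay below all others of the line, with a log2 change of -0.50 against control (SE 0.14, adjusted p = 0.014) and -0.53 against day 1 (SE 0.14, adjusted p = 0.035). The first call was lost without control list 3 or treated list 3 and with median-of-ratios scaling, and turned to 0.19 with the 50000 peaks of largest area, and the second without any 1 of its 6 lists. In PC3, AURKB had 2.60, 2.35 and 2.46 scaled kb in controls, 2.74, 2.70 and 2.47 on day 1 and 2.19, 2.37 and 1.66 on day 10, with overlap and no call (log2 change on day 10 -0.22, adjusted p = 0.21). A region over the AURKB 3′ part (chr17:8204541-8205763) had a peak in 2 of 3 MDA-MB-231 controls, 3 of 3 day 1 lists and 0 of 3 day 10 lists. INCENP and CDCA8, the scaffold and the borealin subunit, were called in no treated group over the window. Both were lower at their ends in PC3 on day 10, beside 58.1% of all genes. Before scaling, the INCENP ends had 1367, 1369 and 1484 bp in PC3 controls and 1364, 1367 and 1361 on day 10. Those of CDCA8 had 1552, 1390 and 1566 bp in controls and 1484, 1523 and 1488 on day 10. The end calls of INCENP and CDCA8 were not followed under the other scalings.

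CENPA, the histone H3 variant that marks centromeres, had 2.06, 1.85 and 1.90 scaled kb in MDA-MB-231 controls and 1.18, 1.28 and 0.697 on day 1. The groups did not overlap (log2 change -0.67, SE 0.17, adjusted p = 0.009). The call held under both other scalings but ended without treated list 3. In PC3 on day 10, CENPA overlapped between groups (log2 change -0.54, SE 0.17, adjusted p = 0.016), and CENPE, a kinetochore motor, did not (-0.29, adjusted p = 0.039). Both calls ended under both other scalings and without control list 3 or treated list 2, and CENPA turned to 0.20 with 50 kb on each side. Genes within 5 Mb had a median change of -0.14 around CENPA and -0.31 around CENPE. CENPF was called in no treated group over the window. It was lower at its ends in MDA-MB-231 on day 1, beside 20.3% of all genes.

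Among the spindle proteins, HAUS1 was lower in all 4 treated groups, NUSAP1 in MDA-MB-231 on day 1, and TPX2 and KIF11 in MDA-MB-231 on day 10. HAUS1 is a subunit of augmin, the complex that branches microtubules inside the spindle. It had 3.04, 3.05 and 2.83 scaled kb in MDA-MB-231 controls, 2.01, 1.74 and 1.46 on day 1 and 2.45, 1.81 and 1.66 on day 10. Neither treated group overlapped the controls, with log2 changes of -0.64 (SE 0.12, adjusted p = 0.0013) and -0.50 (SE 0.12, adjusted p = 0.0061). Both calls held under both other scalings and without any single list. In PC3, HAUS1 had 1.29, 1.52 and 1.28 scaled kb in controls and 0.859, 1.03 and 0.735 on day 1, and all 3 day 10 lists had no peak in the whole window. The day 1 change was -0.44 (SE 0.12, adjusted p = 0.027), a call lost without control list 2 or 3 or treated list 1 or 3 and under both other scalings. On day 10 the gene is listed at 0 and no fold is given. The fitted value of -1.89 (SE 0.12, adjusted p = 2.1e-08) rests on the added 500 bp and became -3.86 with 100 bp and -0.75 with 2000 bp. The call held under all 12 alternatives and with each of 6 lists left out, and the day 10 lists also lay below day 1 (fitted -1.45, adjusted p = 1.9e-06). The day 10 change was lower in PC3 than in MDA-MB-231 by 1.39 on the log2 scale (SE 0.17, adjusted p = 5.6e-05), beside 10.6% of all genes lower in that test.

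**Figure D4:**
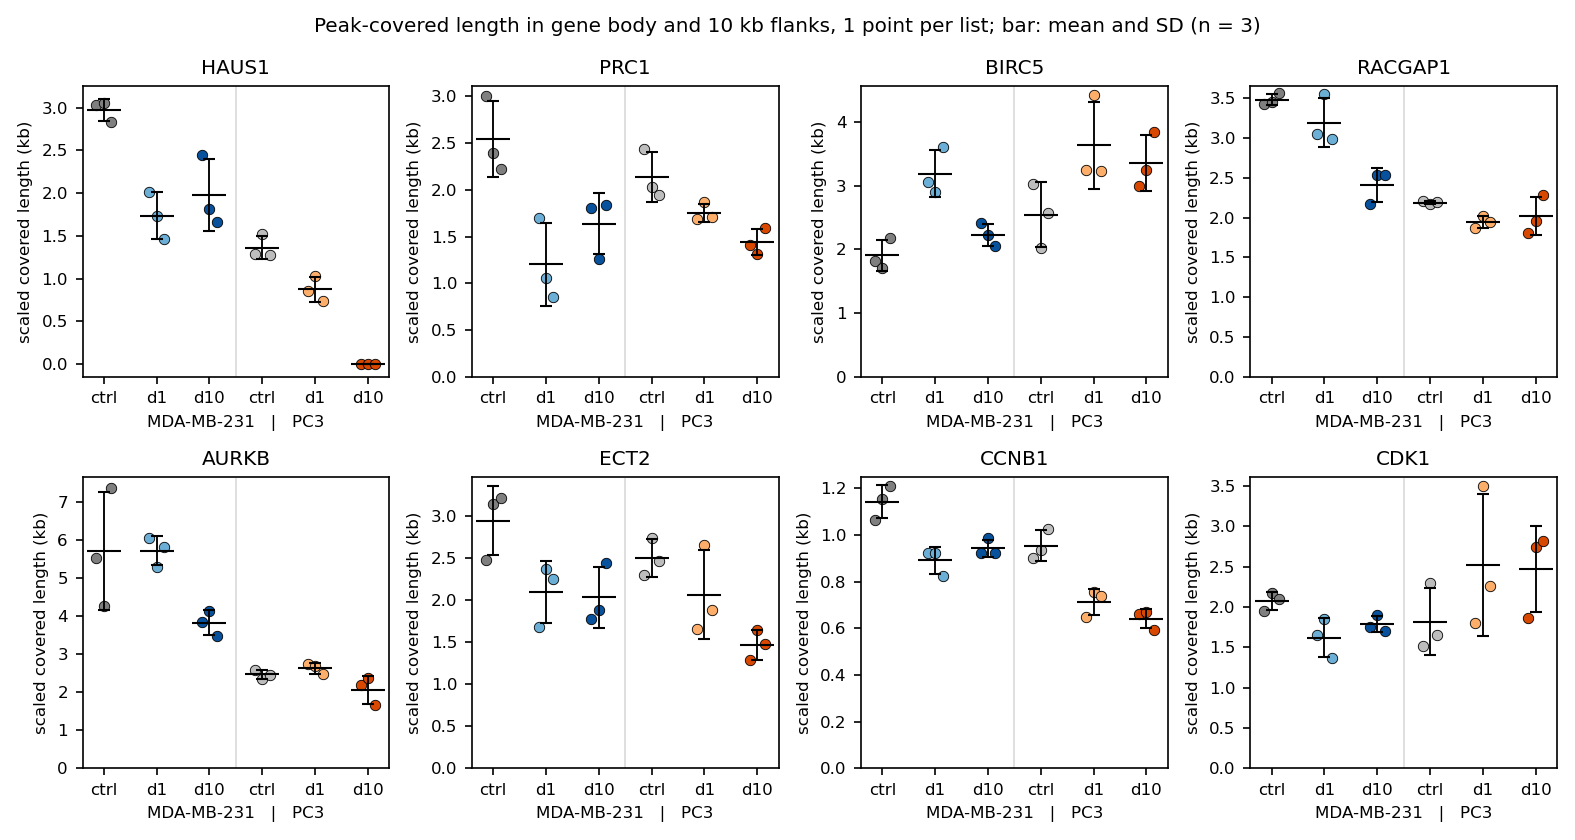
Scaled kb covered in the window of HAUS1, PRC1, BIRC5, RACGAP1, AURKB, ECT2, CCNB1 and CDK1 in each of the 18 lists (points), with the mean and SD of each group (3 lists). HAUS1 falls to 0 in the 3 PC3 day 10 lists, and PRC1 in MDA-MB-231 lies at 0.856 to 1.70 on day 1, under controls at 2.23 to 3.00.

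The 2 HAUS1 regions that went were its start (chr18:46104150-46104844) and a site inside ATP5F1A (chr18:46097820-46098636). Each had a peak in all 9 MDA-MB-231 lists, all 3 PC3 controls and all 3 PC3 day 1 lists, and in no PC3 day 10 list. ATP5F1A, which encodes the alpha subunit of mitochondrial ATP synthase, ends at position 46104227, just before HAUS1 begins at 46104385. Its own window had 1.29, 1.91 and 1.68 scaled kb in PC3 controls, 0.859, 1.03 and 0.735 on day 1 and 0 in all 3 day 10 lists. In MDA-MB-231 it had 4.34, 4.59 and 4.28 scaled kb in controls and 3.42, 2.62 and 2.88 on day 10. Around HAUS1, 32 tested genes within 5 Mb had windows that did not overlap its own. Their median change in PC3 on day 10 was -0.59, and none was as low as HAUS1. In MDA-MB-231 on day 10 their median was -0.01, and 1 of them was lower than HAUS1. On chromosome 18 after the centromere gap, 104 of 169 genes (61.5%) were lower in PC3 on day 10, with a median of -0.47. Before the gap it was 17 of 61 (27.9%), with a median of 0.07. Copy number was not measured, and its part in the HAUS1 result was not tested. Taken relative to the genes within 5 Mb, the HAUS1 change was -1.39 (adjusted p = 1.8e-07).

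**Figure D5:**
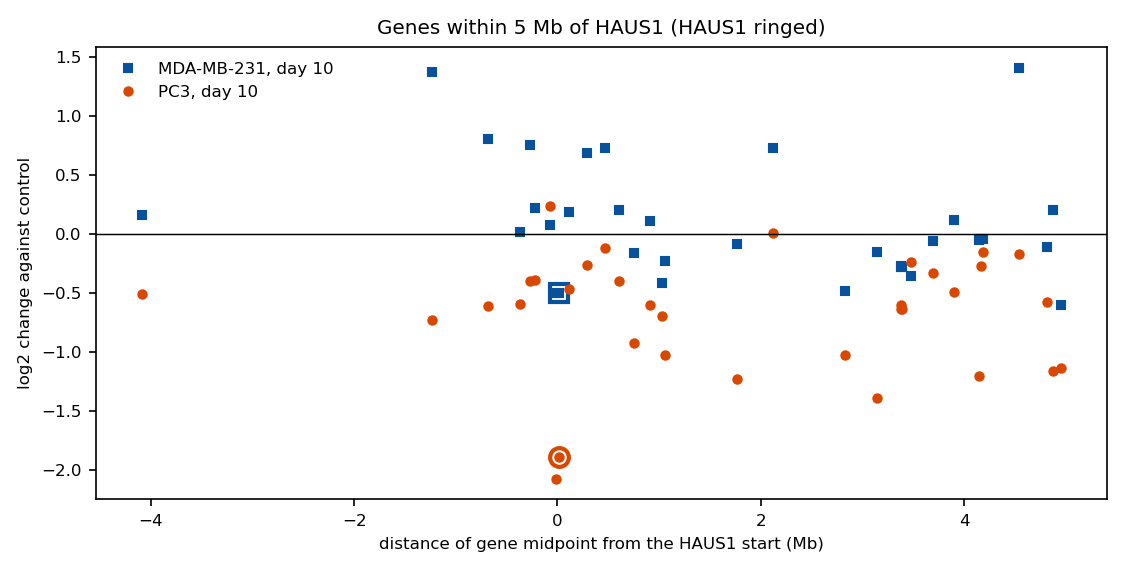
Fitted log2 change on day 10 against control for genes within 5 Mb of HAUS1, by distance from HAUS1 in Mb, in MDA-MB-231 and PC3. HAUS1 is ringed, and the PC3 point below it is ATP5F1A at -2.08, whose window overlaps that of HAUS1. The other genes had medians of -0.01 in MDA-MB-231 and -0.59 in PC3.

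NUSAP1, which bundles spindle microtubules, had 2.29, 2.02 and 2.28 scaled kb in MDA-MB-231 controls, 1.69, 1.20 and 1.41 on day 1 and 1.89, 1.78 and 1.72 on day 10. Day 1 lay below all controls (log2 change -0.48, SE 0.11, adjusted p = 0.0055), without any list deciding it, though the call ended without scaling. Its ends narrowed from 1899, 1953 and 1785 scaled bp to 1202, 1199 and 1146 on day 1 and 1411, 1532 and 1466 on day 10. The end change on day 1 was -0.63 (SE 0.06, adjusted p = 8.1e-06), beside 20.3% of all genes lower at their ends. A site 1.08 kb from its start (chr15:41333571-41334358) had a peak in all 3 MDA-MB-231 controls and in none of the 6 treated lists. TPX2, which activates AURKA, had 5.94, 6.70 and 7.52 scaled kb in MDA-MB-231 controls and 4.18, 4.89 and 4.53 on day 10 (log2 change -0.52, SE 0.17, adjusted p = 0.033). Its PC3 lists had 2.51, 1.59 and 3.25 in controls and 2.15, 2.92 and 3.37 on day 10, with overlap. KIF11, the motor that separates spindle poles, had 5.74, 5.37 and 5.48 scaled kb in MDA-MB-231 controls and 3.99, 3.75 and 5.26 on day 10 (log2 change -0.33, SE 0.12, adjusted p = 0.046). The TPX2 and KIF11 calls ended under both other scalings. Control list 2 or 3 or treated list 1 was enough to lose either when left out.

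Of the 7 cytokinesis genes, the largest group, 2 were lower in MDA-MB-231 on day 1, 4 on day 10, and 0 and 5 in PC3. Beside these stood 15.5%, 16.7%, 7.24% and 33.1% of all genes. PRC1, which crosslinks the antiparallel microtubules of the central spindle, had 3.00, 2.40 and 2.23 scaled kb in MDA-MB-231 controls, 1.70, 1.05 and 0.856 on day 1 and 1.81, 1.26 and 1.84 on day 10. The mean was 2.54 ± 0.405 in controls and 1.20 ± 0.440 on day 1 (SD, n = 3 lists). Neither treated group overlapped the controls. The day 1 change was -0.86 (SE 0.16, adjusted p = 0.00086), and it held under all 12 alternatives and with each of 6 lists left out. On day 10 the change was -0.51 (SE 0.16, adjusted p = 0.021), a call lost without control list 1 or treated list 2 and with median-of-ratios scaling. The ends of PRC1 had 1724, 1420 and 1318 scaled bp in controls, 737, 734 and 613 on day 1 and 1290, 1259 and 1085 on day 10. They fell by 0.99 on the log2 scale on day 1 (SE 0.15, adjusted p = 0.00053) and rose by 0.72 from day 1 to day 10 (SE 0.15, adjusted p = 0.016, beside 0.862% of all genes higher). The rise was lost without scaling or without day 1 list 3 or day 10 list 1 or 2. All 250 PRC1 promoter bases printed above stayed covered in all 18 lists. In PC3, PRC1 had 2.44, 2.03 and 1.94 scaled kb in controls, 1.69, 1.87 and 1.71 on day 1 and 1.41, 1.32 and 1.59 on day 10. Both treated groups lay below the controls, and the day 10 call of -0.44 (SE 0.16, adjusted p = 0.03) ended under both other scalings and without control list 1 or treated list 1 or 2. The PRC1 window also holds RCCD1 and VPS33B.

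RACGAP1 and KIF23 form centralspindlin, which recruits ECT2, the activator of RhoA at the division plane. RACGAP1 had 3.43, 3.45 and 3.56 scaled kb in MDA-MB-231 controls, 3.05, 3.55 and 2.98 on day 1 and 2.17, 2.54 and 2.53 on day 10. Day 10 lay below all other lists of the line, with a log2 change of -0.45 against control (SE 0.09, adjusted p = 0.001) and -0.34 against day 1 (SE 0.09, adjusted p = 0.029). The first call held under both other scalings and without any list, but counted over the gene body alone the change was -0.15. The second was lost without day 1 list 2 or 3 or day 10 list 1, and over the gene body alone it was 0.09. In PC3, RACGAP1 had 2.20, 2.17 and 2.20 scaled kb in controls, 1.87, 2.02 and 1.95 on day 1 and 1.81, 1.96 and 2.29 on day 10, with overlap on day 10 and no call. KIF23 had 3.63, 3.09 and 4.64 scaled kb in PC3 controls, 3.52, 3.08 and 3.20 on day 1 and 2.42, 2.93 and 2.83 on day 10. The day 10 values lay below all controls (log2 change -0.40, SE 0.12, adjusted p = 0.015), a call lost without control list 3 or treated list 1 and under both other scalings. In MDA-MB-231, KIF23 overlapped between control and day 10, with 3.92, 3.75 and 4.12 against 3.87, 3.82 and 3.40 scaled kb.

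ECT2 had 2.29, 2.74 and 2.46 scaled kb in PC3 controls, 1.65, 2.66 and 1.88 on day 1 and 1.28, 1.64 and 1.48 on day 10. Day 10 lay below all controls (log2 change -0.61, SE 0.15, adjusted p = 0.0036), and of the 12 alternatives the call ended only without scaling. At its ends ECT2 had 1405, 1424 and 1526 scaled bp in PC3 controls and 785, 951 and 886 on day 10 (log2 change -0.67, SE 0.09, adjusted p = 6.4e-05), a call that held under each alternative applied to the ends and without any list. In MDA-MB-231 the window had 2.47, 3.14 and 3.21 scaled kb in controls and 1.77, 1.88 and 2.44 on day 10 (log2 change -0.45, SE 0.15, adjusted p = 0.033). That call ended under both other scalings and without control list 2 or 3 or treated list 1 or 2.

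ANLN, the anillin that scaffolds the contractile ring, had 4.64, 4.67 and 3.82 scaled kb in MDA-MB-231 controls, 3.61, 3.66 and 3.78 on day 1 and 3.04, 3.15 and 3.60 on day 10. Day 10 lay below all controls (log2 change -0.37, SE 0.09, adjusted p = 0.0079) whichever list was left out, and the call ended with median-of-ratios scaling. In PC3 it had 2.18, 1.95 and 2.24 scaled kb in controls and 1.58, 1.80 and 1.57 on day 10 (log2 change -0.29, SE 0.09, adjusted p = 0.021), a call that ended under both other scalings and without control list 1 or 3 or treated list 1 or 3. CIT, the citron kinase of the midbody, was lower on day 10 than on day 1 in MDA-MB-231, with 4.76, 4.94 and 5.16 against 6.13, 5.81 and 6.38 scaled kb (log2 change -0.28, SE 0.07, adjusted p = 0.031). Its controls lay between, at 5.40, 5.75 and 5.54. The call was lost without day 1 list 1 or 3 or day 10 list 1 or 2, and turned to 0.071 with the 50000 peaks of largest area. KIF20A, the motor that carries the passenger complex to the midzone, was lower in MDA-MB-231 on day 1 (log2 change -0.35, SE 0.12, adjusted p = 0.041), a call lost without any 1 of 5 lists.

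Between the treated times few members moved. From day 1 to day 10 in MDA-MB-231, 3 genes were lower, RACGAP1, CIT and AURKB, and 0 higher, beside 3.24% and 2.13% of all genes, with 3 higher at an unadjusted p under 0.05 in limma. That count fell to 0 without day 1 list 3 or day 10 list 1, and to 1 without day 1 list 1, day 1 list 2 or day 10 list 2. In PC3 1 gene, HAUS1, was lower and 0 higher, beside 5.50% and 2.19%, with 0 higher at an unadjusted p under 0.05. With the replicate number as a block, 2 were lower in PC3, beside 8.11% of all genes. No gene was called higher over the whole window in either line between these times, while 2 were higher at their ends in MDA-MB-231, PRC1 and NUSAP1. NUSAP1 ends rose by 0.29 (SE 0.06, adjusted p = 0.021), a call lost under both other scalings and without list 2 or 3 of either day. At the ends in PC3, HAUS1, CDC20, ECT2 and PLK4 were lower on day 10 than on day 1 (4 of 31), beside 7.24% of all genes.

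Few members changed by a different amount in the 2 lines, by the interaction term in limma. Over the window, CDC20 was the 1 gene whose day 1 change was higher in PC3 and 0 were lower, beside 1.86% and 3.44% of all genes, with 2 lower at an unadjusted p under 0.05. For the day 10 change 0 were higher in PC3 and HAUS1 was the 1 lower, beside 5.82% and 10.6%, with 4 higher at an unadjusted p under 0.05. At the ends the day 10 change was lower in PC3 for HAUS1, PLK4 and ECT2 (3 of 31), beside 10.3%. Outside the ends 0 of 25 were higher in the day 1 comparison, beside 2.64%, with 2 at an unadjusted p under 0.05. In the day 10 comparison outside the ends TPX2 was higher and HAUS1 lower, beside 8.07% and 8.39%.

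The untreated lines also differed at these genes. In PC3 controls 12 genes (37.5%) were lower than in MDA-MB-231 controls and 2 higher, beside 44.3% and 21.0% of all genes. Without scaling the counts were 10 and 1, and with median-of-ratios scaling 8 and 4. The difference in TPX2 was -1.33 (adjusted p = 3.2e-06), in AURKB -1.04 (adjusted p = 4.8e-06), in HAUS1 -0.90 (adjusted p = 5.5e-06) and in ANLN -0.89 (adjusted p = 2.9e-07). KIF11 (-0.71, adjusted p = 5.5e-05) and RACGAP1 (-0.57, adjusted p = 2.2e-05) were also lower. BUB1B was higher in PC3 (0.40, adjusted p = 0.00044). These 7 held under both other scalings and without any single list. Counted over the gene body alone, however, the BUB1B difference reversed, with lower cover in PC3. The share of members lower was below that of all genes in this comparison.

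Within 1 kb of the gene ends, 12 of 31 genes tested (38.7%) were lower in MDA-MB-231 on day 1, beside 20.3% of all genes, and 3 on day 10, beside 6.17%. In PC3, 9 (29.0%) were lower on day 1, beside 25.0%, and 24 (77.4%) on day 10, beside 58.1%. Their median changes were -0.30, -0.22, -0.26 and -0.38, and those of all genes -0.20, -0.12, -0.24 and -0.35. Without scaling 2, 1, 0 and 4 were lower, and with median-of-ratios scaling 3, 0, 0 and 3. Beside these stood 3.38%, 3.94%, 0.379% and 16.2% of all genes without scaling and 2.51%, 1.85%, 0.621% and 9.55% with median-of-ratios scaling, so the share of the 31 at their ends in PC3 on day 10 was below that of all genes without scaling. Without control list 2 the MDA-MB-231 day 1 count was 4, without treated list 3 it was 5 and without control list 1 it was 7. The MDA-MB-231 day 10 count was 1 without treated list 1 or 2. The PC3 day 1 count was 0 without control list 3, 1 without treated list 1 and 5 without control list 1 or 2 or treated list 3. The PC3 day 10 count was 14 without control list 3. Single end calls were followed under these choices only for HAUS1, CDC20, PLK4, ECT2, NUSAP1 and PRC1. Outside the ends, 25 genes were tested, of which 2 were lower in MDA-MB-231 on day 1, beside 9.76% of all genes, and 5 on day 10, beside 14.6%. With the replicate block, 4 were lower and 2 higher on day 1 of MDA-MB-231, beside 12.2% and 15.4% of all genes. In PC3 4 were lower on day 10, beside 19.0%.

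Whole regions seldom appeared or vanished in these windows. Merging the peaks of a line gave 152338 regions for MDA-MB-231, 153 of them in member windows, and 194852 for PC3, 137 of them in member windows. A peak was present in all 9 lists of the line for 88 member regions in MDA-MB-231 (57.5%, against 43.1% of all regions) and 75 in PC3 (54.7%, against 39.6%). A region was counted as gained where all 3 treated lists and no control list had a peak, and as lost in the opposite case. In MDA-MB-231, 8 regions were gained and 2 lost on day 1, which is 5.23% and 1.31%, beside 7.86% and 0.684% of all regions. On day 10 it was 2 and 3, beside 10.0% and 0.909%. In PC3 6 were gained and 0 lost on day 1, beside 4.28% and 0.407%, and 6 and 2 on day 10, beside 10.4% and 1.33%. From day 1 to day 10, MDA-MB-231 gained 1 and lost 5, beside 2.31% and 2.49%, and PC3 gained 0 and lost 3, beside 2.55% and 1.07%. Leaving out 1 list lowers the number of lists the rule asks for, and the count gained by MDA-MB-231 on day 1 then ran from 8 to 17 and that lost between the treated times from 5 to 15.

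Beside CDK1, CDC20 and BIRC5, the regions gained by PC3 on day 1 lay near PLK1, NUSAP1 and CIT. The PLK1 site (chr16:23691395-23691880), inside ERN2, and the NUSAP1 site (chr15:41377910-41378441) had peaks in all 6 treated PC3 lists and in no control. All 9 MDA-MB-231 lists had a peak at the PLK1 site. In MDA-MB-231 the gained sites of day 1 included 2 beside CCNA2 (chr4:121814845-121815083 and chr4:121827954-121828179), inside EXOSC9 and BBS7, and 1 beside CENPE (chr4:103207749-103207990) that was also present in all 3 day 10 lists. A site in the flank of CIT (chr12:119683492-119684231) had a peak in 0, 3 and 0 lists of the MDA-MB-231 groups and in 0, 3 and 2 of the PC3 groups.

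Other genes of the same pathway, 155 in 7 lists with 148 tested, were also called lower more often than higher in each treated group, though not on day 1 of either line without scaling. In MDA-MB-231, 36 (24.3%) were lower and 5 higher on day 1, and 35 (23.6%) and 1 on day 10. In PC3 it was 18 (12.2%) and 6 on day 1, and 69 (46.6%) and 5 on day 10. Without scaling these became 4 lower and 5 higher, 18 and 0, 0 and 14, and 15 and 11. Of all genes 1.89% and 11.3%, 7.09% and 8.67%, 0.190% and 14.5%, and 7.06% and 16.8% were then lower and higher. With median-of-ratios scaling the pathway counts were 11 and 10, 12 and 3, 7 and 6, and 39 and 16. Beside these stood 5.66% and 13.3%, 5.72% and 12.9%, 2.40% and 8.76%, and 15.0% and 20.4% of all genes. Scaled to total covered length, 9, 8, 2 and 11 of the 20 anaphase-promoting complex genes were lower in the same order. Of the 17 mitotic entry genes it was 4, 7, 5 and 10. Of 24 tested kinetochore genes, 4, 2, 3 and 14 were lower. The shares of all genes lower in these comparisons, scaled to total covered length, were 15.5%, 16.7%, 7.24% and 33.1%. Those higher were 10.9%, 11.0%, 6.02% and 11.8%.

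The pathway genes named here were picked, after their values were seen, from those that moved most. TFDP1, the partner of E2F factors in the DREAM complex, fell from 3.78 ± 0.127 to 1.88 ± 0.227 scaled kb (SD, n = 3 lists) on day 1 of MDA-MB-231 (log2 change -0.85, adjusted p = 6.7e-05) and stood at 2.18 ± 0.475 on day 10 (-0.69, adjusted p = 0.0003). KIF2C, which depolymerises kinetochore microtubules, was lower on day 1 of that line (-0.68, adjusted p = 0.00091). Augmin subunits did not move together: HAUS2 was lower on day 1 of MDA-MB-231 (-0.56, adjusted p = 0.00023) and HAUS6 on day 10 (-0.61, adjusted p = 0.0013), while HAUS7 was higher on day 1 of that line (0.76, adjusted p = 0.0061) and on day 10 of PC3 (0.65, adjusted p = 0.0084). KIF18B, a microtubule depolymerase, was lower on day 10 of MDA-MB-231 (-1.03, adjusted p = 0.00024), as was ANAPC2, the cullin of the anaphase-promoting complex (-0.68, adjusted p = 0.00025). In PC3, PMF1 of the outer kinetochore was higher on day 1 (0.90, adjusted p = 0.002) and day 10 (0.83, adjusted p = 0.00056). UBE2C, which supplies ubiquitin to the anaphase-promoting complex, was higher on day 1 (0.55, adjusted p = 0.0037). KIF18A was lower on day 1 (-0.60, adjusted p = 0.0026) and day 10 (-0.73, adjusted p = 9.4e-05), and NCAPH2 of condensin II on day 10 (-0.68, adjusted p = 2.4e-05). All of these but KIF18A on day 1, which was lost without scaling, kept their call under both other scalings and without any single list.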

How the data were processed

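ATAC-seq peak lists of 54 samples were analysed, 1 list for each of 18 biological replicates. Per the submitters' processing notes, the tools named were Genrich 0.6.2, Bowtie2 2.3.5.1, SAMtools 1.6, FastQC 0.12.1, Picard and R 4.4.1, on GRCh38 (hg38). The sources used here do not say how experimental replicates were joined into 1 list. The deposited lists give peak positions and, in column 7, a score read here as the area of the peak, whose lowest value was 200 in every list; it was used only to rank peaks. Read counts are not in the lists, so the depth behind a value is unknown and no counting interval is given.

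The members and lists were chosen with earlier results of these data known. Positions of genes were those of RefSeq on GRCh38.p14. Peaks of a list were merged, and covered bp were summed over gene body and 10 kb on each side, within 1 kb of either end, and in the window outside the ends. Values were scaled to the mean total covered length. Genes with at least 500 bp (ends 100 bp) in at least 3 lists were tested with limma 3.58.1 in R 4.3.3 (moderated test with a variance trend) on log2(bp + 500) (ends log2(bp + 100)), with 1 fit over all 6 groups, 12 residual degrees of freedom and adjustment by Benjamini-Hochberg over all genes kept, at a threshold of 0.05. All fold changes are on that scale and understate the change of low genes. Differences between lines were interaction terms of the fit. The fit was tested on simulated data. Regions were peaks of the 9 lists of a line merged where they shared at least 1 bp, and were not tested. Tables were handled in Python 3.11.15 with pandas 2.3.3 and numpy 2.4.6.

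The named genes were the called members, up to 6 in each comparison by smallest p, members without an end peak in some list, and CDK1, CCNB1, AURKB, ANLN, KIF23 and RACGAP1. Of 155 other pathway genes, 154 matched by symbol and 1 by an older symbol. Whether equal replicate numbers pair lists was checked by correlating their deviations from the group means. All 3 pairs passed 0.1 in MDA-MB-231 between control and day 1 (0.389, 0.235 and 0.193) and between day 1 and day 10 (0.419, 0.310 and 0.197), and in PC3 between day 1 and day 10 (0.345, 0.132 and 0.216), where the pairing rests on these values, since the labels do not state it. In MDA-MB-231 between control and day 10 (0.330, 0.133 and 0.0564) and in PC3 between control and day 1 (0.0999, -0.0444 and 0.00525) or day 10 (0.0289, 0.253 and 0.0297) at least 1 pair did not. Alternatives were other scalings, pseudocounts, windows and filters, the 50000 peaks of largest area, the replicate block, a fit over 1 line and each list left out. Those for ends, outside ends and regions, the lists numbered 1 left out of all groups, and changes relative to genes within 5 Mb were chosen after seeing the data.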

Additional observations from a re-analysis of the deposited data

Results flagged for a closer look

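In 8 measurements of members the change on treatment differed between the lines by an interaction term of the fit (limma, Benjamini-Hochberg). On day 1, CDC20 changed more upward in PC3 than in MDA-MB-231, by 0.49 on the log2 scale over its window and by 0.98 at its ends. On day 10, HAUS1 changed more downward in PC3, by -1.39 over its window, -2.58 at its ends and -0.70 outside them, and all 3 values rest on PC3 day 10 lists at 0. At their ends, ECT2 (-0.45) and PLK4 (-0.97) also changed more downward in PC3 on day 10, beside 10.3% of all genes lower in that test. These end changes were not set against genes within 5 Mb. Outside its ends, TPX2 changed more upward in PC3 on day 10, by 1.14. Its change there was -0.60 in MDA-MB-231 (adjusted p = 0.072, groups without overlap) and 0.54 in PC3 (adjusted p = 0.091, groups overlapping). The HAUS1 differences over the window and at the ends, and that of CDC20 at the ends, held with each of 12 lists left out. That of ECT2 was lost for 6 of the 12 lists, of PLK4 for 4, of CDC20 over the window for 9, of HAUS1 outside the ends for 4 and of TPX2 for 7.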

How the results depend on the processing

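Counts of members called higher or lower moved with most choices, and the cause was not tested unless fewer lists or genes entered the test. Shares of all genes were not drawn up for other windows, filters, pseudocounts, a fit over 1 line or single lists left out. Counts under those choices cannot be read against all genes. The number of genes with an end peak in all 18 lists was 26 to 30 with other end windows (26 of the 27 with a known start at the start alone) or the 50000 peaks of largest area. Of 57 calls of single members over the windows, 27 kept their call without scaling, 28 with median-of-ratios scaling, 16 with the 50000 peaks of largest area and 54 with the replicate block, and 236 of 354 fits with 1 list left out kept theirs. The precision is limited by 3 lists per group and by lists without read counts.

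Without scaling, members lower over the window numbered 3 and 5 in MDA-MB-231 on days 1 and 10, and 0 and 1 in PC3. Members higher numbered 2 in PC3 on day 1 and 1 between untreated lines, and the differences in change between lines gave 0 higher on day 1 and 1 on day 10. At the ends 2 and 1 were lower in MDA-MB-231, with 0 and 4 in PC3, from day 1 to day 10 in MDA-MB-231 0 were higher and 1 lower, and 1 difference between lines was lower on day 10. Outside the ends 1 and 2 were lower in MDA-MB-231, 1 in PC3 on day 10, and 3 and 4 higher in PC3. Of all genes over the window, 14.5% were higher in PC3 on day 1 and 19.9% between untreated lines. Differences in change were higher for 1.07% on day 1 and 7.98% on day 10. At the ends, 0.49% were higher and 2.26% lower between days in MDA-MB-231. There 2.99% of day 10 differences were lower. Outside the ends, 1.72% and 6.68% were lower in MDA-MB-231, 4.08% in PC3 on day 10, and 17.9% and 21.4% higher in PC3. Without scaling CIT in PC3 on day 10 reversed to 0.047.

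With median-of-ratios scaling, 2 were higher and 4 lower over the window in MDA-MB-231 on day 1, 2 lower on day 10, 2 higher and 0 lower in PC3 on day 1, and 2 higher and 3 lower on day 10. Between untreated lines 4 were higher, beside 30.3% of all genes, and 2 differences in the day 10 change were higher, beside 7.96%. At the ends 3 and 0 were lower in MDA-MB-231, with 0 and 3 in PC3. From day 1 to day 10 at the ends 1 was higher and 1 lower in MDA-MB-231 and 2 lower in PC3, and the differences between lines gave 2 higher on day 1 and 1 higher and 1 lower on day 10. Outside the ends 2 were higher in MDA-MB-231 on day 1 and 2 lower on day 10, and 2 and 4 were higher in PC3. Of all genes at the ends between days, 0.71% were higher and 2.36% lower in MDA-MB-231, and 4.1% lower in PC3. Differences there were 1.45% higher on day 1, and 4.04% higher and 4.13% lower on day 10. Outside the ends, 14.2% were higher in MDA-MB-231 on day 1 and 6.87% lower on day 10, and 8.79% and 19.2% higher in PC3. NUSAP1 at its ends in PC3 on day 10 reversed to 0.13.

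With the 50000 peaks of largest area, 0 were higher and 2 lower in MDA-MB-231 on day 1, beside 4.07% and 3.3% of all genes. In that line 0 were lower on day 10 and 0 from day 1 to day 10, beside 3.45% and 2.04%. In PC3 0 were higher and 8 lower on day 10, beside 8.77% and 20.7%. From day 1 to day 10 2 were lower there, beside 6.58%, and 2 differences in the day 10 change were lower, beside 9.66%. At the ends 2 and 0 were lower in MDA-MB-231, beside 2.26% and 1.93%. In PC3 the ends gave 0 higher and 0 lower on day 1, beside 0.795% and 1.44%. On day 10 5 were lower, beside 17.3%, and 2 between these days, beside 6.45%. The differences between lines gave 0 higher on day 1, beside 0.879%, and 1 lower on day 10, beside 8.81%. Outside the ends 0 and 0 were higher in MDA-MB-231, beside 5.8% and 5.99%, and 2 lower on day 10, beside 5.42%. In PC3 1 was lower on day 1, beside 2.99%, and 1 higher on day 10, beside 11.1%. The differences between lines gave 1 higher on day 1, beside 1.9%, and 2 higher and 2 lower on day 10, beside 6.15% and 6.94%. Reversed values were 0.077 for CDC20 and -0.24 for BIRC5 in MDA-MB-231 on day 1, 0.19 for AURKB on day 10, 0.071 for CIT from day 1 to day 10, 0.15 and 0.039 for NUSAP1 at its ends on day 10 of MDA-MB-231 and PC3, and 0.092 for the HAUS1 difference between lines outside the ends.

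With lists numbered 1 left out, 3, 4 and 0 members were lower in MDA-MB-231 on day 1, on day 10 and between them. The shares of all genes were 6.98%, 8.8% and 1.29%. In PC3 0 were higher and 0 lower on day 1, beside 3.8% and 1.12%, and 5 lower on day 10, beside 24.1%. Between untreated lines 1 was higher, beside 19.2%, and 0 differences in the day 1 change were higher, beside 1.54%. At the ends 5 and 0 were lower in MDA-MB-231, beside 7.88% and 3.49%, and 1 higher from day 1 to day 10, beside 0.636%. In PC3 0 were higher and 0 lower at the ends on day 1, beside 1.89% and 0.848%, and 2 lower between days, beside 6.56%. Of the differences in the day 1 change 0 were higher, beside 1.73%. Outside the ends 1 and 2 were lower in MDA-MB-231, beside 4.72% and 8.78%. In PC3 0 were higher on day 1 and 1 lower on day 10, beside 5.06% and 11.7%. Of the differences in the day 10 change 0 were higher and 0 lower, beside 5.86% and 5.52%.

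Over the gene body alone, 0 were higher in MDA-MB-231 on day 1, 4 lower on day 10, 1 higher and 1 lower between them, 0 higher in PC3 on day 1, 1 higher between untreated lines, and 1 and 2 differences in the day 10 change were higher and lower. Reversed values were -0.18 for BIRC5 (MDA-MB-231, day 1) and -0.048 (PC3, day 10), 0.087 for RACGAP1 (day 1 to day 10), -0.23 for BUB1B (untreated lines) and -0.094 for UBE2C (PC3, day 1). With 50 kb on each side, 1 was higher in MDA-MB-231 on day 10, 0 higher and 2 lower in PC3 on day 1, 3 higher on day 10, 2 lower between those days, 5 higher between untreated lines and 2 differences in the day 10 change higher. Here BUB1B (0.10) and BIRC5 (-0.033) in MDA-MB-231 on day 1 and CENPA (0.20) and AURKA (0.28) in PC3 on day 10 reversed.

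Relative to genes within 5 Mb, 2 were higher and 5 lower in MDA-MB-231 on day 1, beside 13.5% and 8.44% of all genes. On day 10 of that line it was 1 and 4, beside 13.6% and 7.97%. Between these days 1 was lower, beside 2.91%. In PC3 it was 0 and 0 on day 1, beside 7.85% and 3.52%, and 7 lower on day 10, beside 14.3%. Between untreated lines 8 were higher, beside 28.6%, and 0 differences in the day 1 change were higher, beside 2.09%. Reversed values were 0.026 for CCNB2, 0.12 for CCNA2, 0.020 for PLK4 and 0.17 for CCNB1 in PC3 on day 10, and 0.18 for MAD2L1 and 0.54 for PLK4 between untreated lines. With no filter, 0 were higher and 2 lower in PC3 on day 1, 0 higher on day 10, 1 higher between untreated lines and 1 difference in the day 10 change higher. A fit over PC3 alone gave 0 higher and 0 lower on day 1 and 0 higher on day 10. With 100 bp added, 2 were lower in PC3 on day 1, and with 2000 bp, 1 was higher between untreated lines and 2 differences in the day 10 change.

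With the replicate block over the window, 2 were lower in PC3 from day 1 to day 10, and 1 higher between untreated lines. All genes stood at 8.11% and 18.9%. The differences in the day 1 and day 10 change gave 2 and 3 higher, beside 2.96% and 7.7%. Outside the ends the block gave 2 higher and 4 lower in MDA-MB-231 on day 1, beside 15.4% and 12.2%. In PC3 4 were higher on day 10, beside 17.2%. Differences in change were higher for 1 and 2 on days 1 and 10, beside 3.63% and 10.6%. Other counts stayed within 1.5 times, and the block ended the call of BIRC5 in 3 comparisons and of no other named member.

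With each list left out in turn, members lower over the window numbered 4 to 8 on day 1 of MDA-MB-231, 5 to 7 on day 10 and 0 to 2 between those days, 0 to 2 and 7 to 15 in PC3, and 11 to 12 between untreated lines. Members higher ranged from 0 to 1 in MDA-MB-231 between days, from 0 to 1 and 0 to 2 in PC3, and from 1 to 2 between untreated lines. Differences in change gave 0 to 1 higher and 0 to 1 lower on day 1, and 0 to 2 higher and 1 to 2 lower on day 10. At the ends the lower counts were 4 to 12 and 1 to 2 in MDA-MB-231, 0 to 11 and 14 to 24 in PC3, and 2 to 5 in PC3 between days. Those higher were 0 to 2 in MDA-MB-231 between days, and differences in change were 1 to 2 higher on day 1 and 1 to 3 lower on day 10. Outside the ends 1 to 3 and 2 to 6 were lower in MDA-MB-231 and 1 to 3 on day 10 in PC3, 0 to 1 and 1 to 3 were higher in PC3, and differences in change were 0 to 1 higher on day 1 and 0 to 3 higher and 0 to 1 lower on day 10. Regions gained in MDA-MB-231 on day 1 numbered 8 to 17, and those lost from day 1 to day 10 numbered 5 to 15.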
